A study of Homo sapiens with 49 samples.

Results

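SIN3A and MAX co-bound regions of Ishikawa cells, a line from an endometrial adenocarcinoma, were selected by measured occupancy. They are the peaks of MAX in cells given the vehicle DMSO that overlapped, by at least 1 bp, a SIN3A peak of stripped media, a SIN3A peak of full media and an H3K4me3 peak under DMSO, on chromosomes 1 to 22 and X. The rule took 2564 of the 3365 MAX DMSO peaks on these chromosomes, out of 528044 regions in the 45 peak lists of the series. These 2564 peaks are called members below, and their place in the 4 lists of the rule is a description, not a result. Members came from 1 MAX library of 1 cell line, and each of the 4 lists was a single library, so the selection has no replicate check.

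SIN3A is the scaffold of a histone deacetylase complex, and MAX is the obligate partner of the MYC and MXD proteins, with which it binds the E-box, whose letters are CACGTG. MYC with MAX is known for activating genes of ribosome production and metabolism, whereas MXD proteins with MAX bring SIN3A to the same E-boxes and repress. H3K4me3, the trimethylation of lysine 4 of histone H3, marks the start sites of active and poised genes.

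The series mapped histone marks and DNA-bound proteins by chromatin immunoprecipitation and sequencing (ChIP-seq) in Ishikawa and in T-47D, a line from a breast ductal carcinoma. Both lines had been kept in hormone-depleted medium and then received DMSO or 17β-estradiol (E2) at 10 nM, for 1 h before ChIP of a protein and for 8 h before ChIP of a histone mark. SIN3A was mapped in charcoal-stripped and in full media. Used here were lists of MAX, MYC (labelled c-MYC), TAF1, RARA, LSD1, JUN (labelled c-JUN), H3K4me3, H3K4me1 and H3K27me3 under DMSO and E2 and of SIN3A in both media in each line, H3K36me3 of Ishikawa, and RNA polymerase II (RNAPII, labelled Pol2) in T-47D, 2 libraries per treatment. The remaining groups had 1 library each. No depth stands in the lists, so depth is unknown, and a peak absent from a list may lie below its threshold. Lists differed in length, from 2 regions for Ishikawa MYC under E2 to 46280 for an RNAPII list on these chromosomes, and a longer list overlaps more places. Percentages carry exact (Clopper-Pearson) 95% intervals where given. They cover counting error only, and no test was made between groups of 1 library.

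Line identity was checked by H3K4me3 within 250 bp of start sites of marker genes. Of 7 genes of endometrial or Mullerian epithelium, 5 carried the mark in Ishikawa and 2 in T-47D. WT1 carried it in both lines, SOX17 in neither, and PAX2, against its label, in T-47D only. Of 7 genes of luminal breast epithelium, 5 carried it in T-47D and 3 in Ishikawa. FOXA1, ESR1 and PGR carried it in both lines, and TFAP2B and ANKRD30A in neither. Of 4 genes of simple epithelium, all had it in Ishikawa and 3 in T-47D.

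The word promoter fitted most members, but not all. By GENCODE release 44 on GRCh37, 1642 members (64.0%) lay within 250 bp of the start site of a protein-coding transcript and 1860 (72.5%) within 250 bp of any annotated start site. Beyond 1000 bp of any annotated start site were 454 members. They are therefore called SIN3A and MAX co-bound H3K4me3 regions. At protein-coding start sites the MAX summit was centred on the start itself, at a median of 1 bp downstream, with quartiles of -98 and 79 bp. The width of members ran from 162 to 1341 bp, with a median of 245 bp. MAX fold enrichment, the ratio of ChIP pileup to background at the summit, ran from 2.92 to 24.5 with a median of 6.76. The SIN3A peaks at members had median folds of 29.0 in stripped and 14.6 in full media, and the H3K4me3 peaks of 23.5, against 17.1, 11.4 and 15.2 over the whole of each list. The rule had no graded threshold other than the 1-bp overlap. The smallest overlaps inside it were 13 bp with SIN3A of stripped media, 3 bp with SIN3A of full media and 1 bp with H3K4me3. Among MAX peaks that failed 1 list only, the nearest would have had to be moved by 758, 5 and 1 bp, respectively.

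Members were unevenly spread over chromosomes. Of the SIN3A regions on chromosomes 10 and 12, 37.7% and 43.4% had a member, while the other 21 chromosomes ranged from 5.29% on X to 22.2% on chromosome 3. These 2 chromosomes held 21.9% of Ishikawa MAX DMSO peaks, 20.9% of MAX E2 peaks and 21.4% of H3K27me3 DMSO peaks, but 9.65% of SIN3A peaks of stripped media, 9.82% of H3K4me3 and 9.94% of TAF1 peaks under DMSO. What sets these chromosomes apart was not tested, and the main shares without them are given at the end.

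The E-box was the sequence feature that the rule had not used. CACGTG, which reads the same on both strands, stood within 50 bp of the MAX summit in 592 of 2564 members (23.1%, interval 21.5 to 24.8), and 53 of these held at least 2 copies. The share was 16.4% on chromosomes 10 and 12 and 25.1% on the others. The windows below show it in members that recur in the results. Each is 30 bases of the plus strand of hg19 (GRCh37), with the E-box nearest the MAX summit in capitals. The first 8 lie at genes of ribosome biogenesis, the next 4 at genes of growth metabolism, translation and the lysosome, the next 2 in members that MAX, MYC and SIN3A of T-47D also overlapped, and the last 2 in strong members that lie away from start sites.
NCL, in the UTR (chr2:232328551-232328580): tccggggcccacCACGTGtcggcttgccag
NPM1, in an intron (chr5:170815566-170815595): aaccgctgggagCACGTGgttgccacgtgg
NOP2, in the UTR (chr12:6677405-6677434): cgggcggccctcCACGTGcaatccggacct
PES1, in the UTR (chr22:30987867-30987896): cacttcctcccgCACGTGccctgccaagga
GNL3, in the UTR (chr3:52720042-52720071): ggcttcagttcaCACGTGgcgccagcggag
WDR43, in the UTR (chr2:29117524-29117553): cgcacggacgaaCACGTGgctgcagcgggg
IMP4, in the UTR (chr2:131100473-131100502): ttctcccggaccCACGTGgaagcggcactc
RRP12, in the UTR (chr10:99161048-99161077): acgctcagaaccCACGTGgataccctgtag
PAICS, in an intron (chr4:57302545-57302574): tgagctcgcggcCACGTGcgagccgcgaaa
HK2, in an intron (chr2:75062091-75062120): gattgctgcgccCACGTGggagggagcccc
EIF4A1, in the UTR (chr17:7477258-7477287): ctgggtcgggccCACGTGgacccggcggca
LAMP1, intergenic (chr13:113951366-113951395): tgggtccagggtCACGTGccgctgcgggtc
PPRC1, in an intron (chr10:103893434-103893463): aggcagcgggtcCACGTGggggcggggaag
FBXW8, intergenic (chr12:117348659-117348688): aagccggaccacCACGTGcgtacaggggca
intron of ARID3A (chr19:935089-935118): cccccttcctggCACGTGgcaggcctggcc
intergenic, nearest start site HMOX1 (chr22:35767980-35768009): cctttcccgagcCACGTGgccgtgtttttc

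The window of NPM1 holds a second copy, left in lower case. The annotation is that of the 6 E-box bases themselves. In these windows the capitals are mostly preceded by C or followed by G. Over the 588 members whose E-box had both neighbours inside the search window, the base before the E-box, read 5′ to 3′ on each strand, was C on one strand and G on the other in 152 and C on both in 127. It was T on both strands in 20 and A on both in 16.

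E-boxes lay close to the MAX summit. The nearest one was centred a median of 15.5 bp from it. In 20-bp bins the density was 79.6 E-boxes per 1000 members at the summit bin, and 3.51 and 3.12 per 1000 in the outermost bins. The variant CACGCG was found within 50 bp in 15.2% of members and CATGTG in 7.76%, on either strand. Around all 78394 protein-coding start positions the same window held CACGTG in 2.78%, CACGCG in 5.03% and CATGTG in 3.23%. The mean GC content was 61.7% in these windows and 65.8% in those of members.

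**Figure D1:**
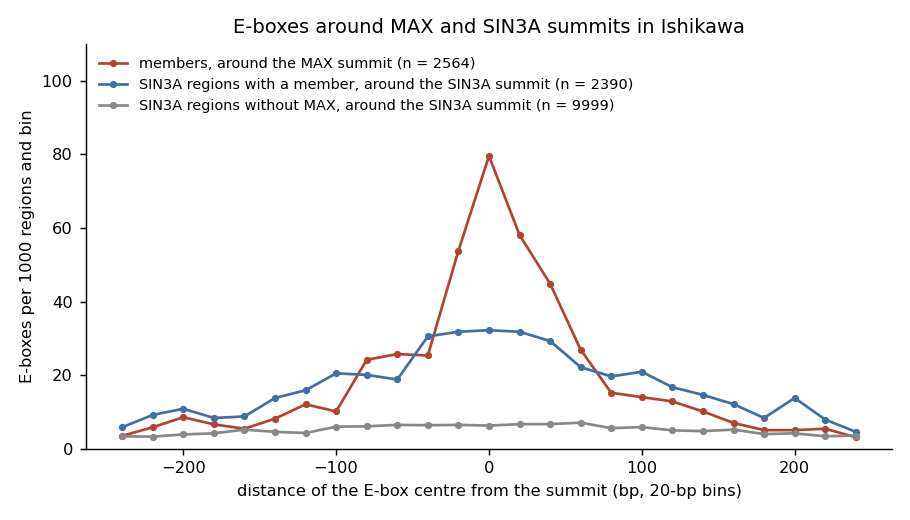
E-boxes per 1000 regions in 20-bp bins (y axis) by distance of the E-box centre from the summit in bp (x axis), for members around the MAX summit, for SIN3A regions with a member and for SIN3A regions without MAX around the SIN3A summit. Members reach 79.6 per 1000 at the MAX summit, the SIN3A summits of the same places 32.2, and SIN3A regions without MAX stay between 3.30 and 7.10.

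To separate MAX from SIN3A and H3K4me3, members were set beside places with SIN3A alone. Of 12472 SIN3A peaks of stripped media that overlapped SIN3A of full media and H3K4me3, 2390 overlapped a member and 9999 overlapped no MAX DMSO peak. The latter were called SIN3A regions without MAX. The remaining 83 overlapped a MAX peak that was no member. Because these SIN3A regions are wider than members, with a median of 748 bp for those without MAX, both sets were compared in equal windows that reach 150 bp to either side of the SIN3A summit, or 50 bp for motifs. There the E-box was found in 13.8% of SIN3A regions with a member (interval 12.5 to 15.3) and in 2.93% of those without MAX (2.61 to 3.28). The variant CACGCG was found in 9.87% and 6.01%, and CATGTG in 5.31% and 2.37%. The GC content of these windows was 65.7% and 65.8%, and their mean number of CpG dinucleotides 8.13 and 8.41. The SIN3A peaks themselves, of a list that the rule used, had a median fold of 28.9 with a member and 22 without MAX, which is a description. These folds are of whole peaks, whose median width at members was 958 bp, and not of equal windows.

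Among genes, members lay at a start site of 1766 of 19748 protein-coding genes, which is the background of 8.94%. Of the 13160 genes with Ishikawa H3K4me3 at a start site 13.4% had a member, and of the 9847 genes with SIN3A at H3K4me3 there 17.9% did. Since 239 members lay at 2 or more genes, neighbours share members. The gene families below were chosen with earlier results of these data known, they are described by counts only, and no set test was made.

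Ribosome biogenesis, the making of ribosomes in the nucleolus, was the family with the highest share. Of its 31 genes 25 had a member (80.6%, interval 62.5 to 92.5), against 17.9% over all genes with SIN3A at H3K4me3, which all 31 genes had. With MAX peaks of a fold of at least 10 only, the share was 9.68%, against 0.719% of all protein-coding genes. The E-box stood within 50 bp of the MAX summit at 16 of these 25 genes, against 25% of all genes with a member. The 25 genes, all of which are named here after their values were seen, were BYSL, DDX18, DDX21, FBL, GNL3, IMP4, LYAR, MRTO4, NCL, NOLC1, NOP14, NOP16, NOP2, NOP56, NOP58, NPM1, PES1, PPAN, RRP12, RRP1B, RRP9, TCOF1, UTP20, UTP4 and WDR43. The genes without a member were BOP1, DKC1, GAR1, IMP3, NHP2 and WDR12. GAR1, DKC1 and NHP2 are subunits of the box H/ACA particle, which guides pseudouridylation, whereas FBL, NOP56 and NOP58, of the box C/D particle that guides RNA methylation, all had a member.

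NCL, nucleolin, a major nucleolar protein, was the strongest of them. Its Ishikawa MAX fold was 17.5 under DMSO and 19.6 under E2, its SIN3A fold 57.7 in stripped and 13.1 in full media. In T-47D the NCL member was overlapped by MAX at 12.1 under DMSO and 21.2 under E2, by MYC at 7.11 under DMSO only, and by SIN3A at 10.1 in full media only. It thus appeared in 4 of the 6 T-47D lists of MAX, MYC and SIN3A. NPM1, nucleophosmin, which shuttles ribosomal particles, had MAX folds of 8.12 and 7.03 in Ishikawa and 6.98 and 11 in T-47D, under DMSO and E2. RRP12, an export factor of ribosomal subunits, was weak in MAX at 4.81 and 5.01 but strong in SIN3A, at 95.1 in stripped and 44.3 in full media of Ishikawa and 7.36 and 27.5 in T-47D. UTP20, of the small-subunit processome, had the same build, with a MAX fold of 6.26 under DMSO, none under E2 and a SIN3A fold of 93.8 in stripped media. The order of MAX folds was thus not the order of SIN3A folds in this family.

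**Figure D2:**
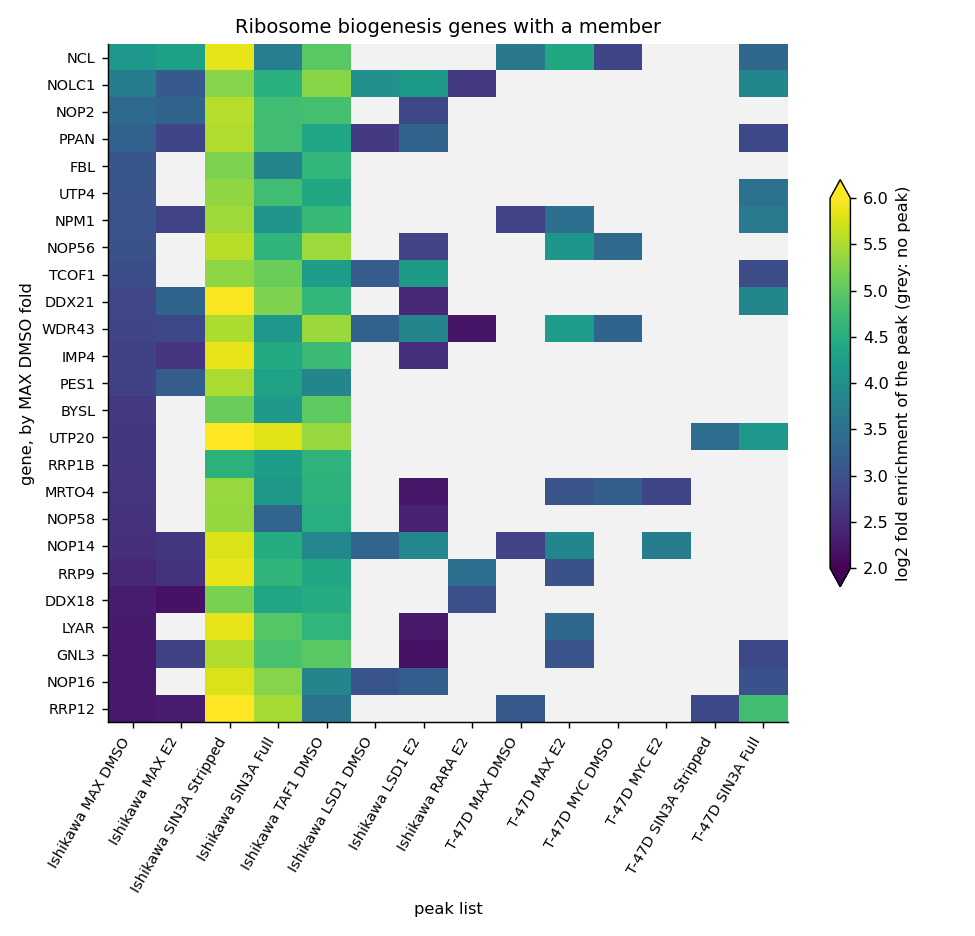
Fold enrichment, as log2 in colour, of the peak overlapping the strongest member at each of 25 ribosome biogenesis genes (rows, by MAX DMSO fold) in 14 lists (columns), grey where the list has no peak. SIN3A of stripped media is the brightest column, MAX of Ishikawa under E2 is present at 14 genes, LSD1 under DMSO at 6, and T-47D lists fill a minority of cells.

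Other families of protein synthesis followed. Translation initiation factors had a member at 20 of 46 genes (43.5%), aminoacyl-tRNA synthetases, which load amino acids onto tRNAs, at 16 of 39 (41.0%), RNA polymerase subunits at 11 of 32 (34.4%), cytosolic ribosomal proteins and like-named genes at 29 of 86 (33.7%) and mitochondrial ribosomal proteins at 20 of 78 (25.6%). The lower ends of these intervals were 28.9, 25.6, 18.6, 23.9 and 16.4%, so those of the first 4 lay above 17.9%. All of them lay above the 8.94% of all protein-coding genes. The strongest translation factors were EIF5A2, a variant of the hypusinated factor eIF5A, at a MAX fold of 15.1, and EIF4A1, the cap-binding complex helicase, at 10.8. Of the ribosomal protein genes RPL5, of the large subunit, had 8.32 and RPS2, of the small subunit, 8.32. The E-box, present at 16 of 25 genes of ribosome biogenesis, stood at 25% of all genes with a member. It was found at 5 of 11 RNA polymerase subunit genes and 6 of 20 genes of translation initiation factors. Lower counts were those of cytosolic ribosomal protein genes with 5 of 29, mitochondrial ones with 2 of 20 and synthetases with 1 of 16.

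Genes of metabolism were also frequent. Glycolysis had a member at 9 of 18 genes (interval 26.0 to 74.0%), with HK2, hexokinase, at a MAX fold of 8.70, TPI1 at 8.74 and LDHB, lactate dehydrogenase B, at 8.61. Nucleotide synthesis had one at 13 of 27 (28.7 to 68.1%), among them PFAS and PAICS of purine synthesis at 12.4 and 8.55, DHODH of pyrimidine synthesis at 12.4 and TYMS, thymidylate synthase, at 10.0. The circadian clock, whose core factors also read E-boxes, had one at 7 of 16 genes (19.8 to 70.1%), CIART, CRY2, DBP, NR1D1, PER1, PER2 and TEF. All 7 were also overlapped by MAX of Ishikawa under E2 and by MAX of T-47D, against 34.9% and 29.3% of all genes with a member. An E-box stood within 50 bp of the MAX summit at 2 of the 7, against 25% of all genes with a member. For glycolysis it stood at 4 of 9 genes with a member, and for nucleotide synthesis at 5 of 13. CRY2, a repressor of the clock, had folds of 10.1 and 15.2 in Ishikawa and 6.05 and 13 in T-47D under DMSO and E2. Chaperonins and heat shock proteins had a member at 11 of 29 genes (20.7 to 57.7%), on 10 distinct members, since HSPD1 and HSPE1 share a start region. CCT2, a subunit of the chaperonin that folds actin and tubulin, had the highest of these MAX folds, 7.62.

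Families whose intervals held 17.9% were splicing factors with 15 of 61 genes, DNA replication with 9 of 43, proteasome subunits with 10 of 48, the respiratory chain with 14 of 94, lysosome and V-ATPase with 6 of 47, and HOX genes with 3 of 39, HOXA4, HOXA5 and HOXD9. Only 7 HOX genes carried SIN3A at H3K4me3, of which these 3 are 42.9%. The family shares are of all genes of a family, for which the background is 8.94%. The intervals of splicing factors, DNA replication and proteasome subunits lay above that, with lower ends of 14.5%, 10.0% and 10.5%. Of their genes with SIN3A at H3K4me3, 27.3%, 20.9% and 22.7% had a member. Polyamine synthesis had 1 of 7, SRM, spermidine synthase, at a MAX fold of 4.40. Replication-dependent histone genes had none of 64 (interval up to 5.60%), although 17 carried SIN3A at H3K4me3, and olfactory receptors, silent outside the nose, none of 390, of which 1 carried it. Zinc finger genes had 37 of 551 (6.72%), or 9.27% of the 399 with SIN3A at H3K4me3, below the 17.9% of all such genes. Keratins had 2 of 55, or 2 of the 4 with SIN3A at H3K4me3, KRT80 and KRT8, at MAX folds of 13.7 and 5.45.

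**Figure D3:**
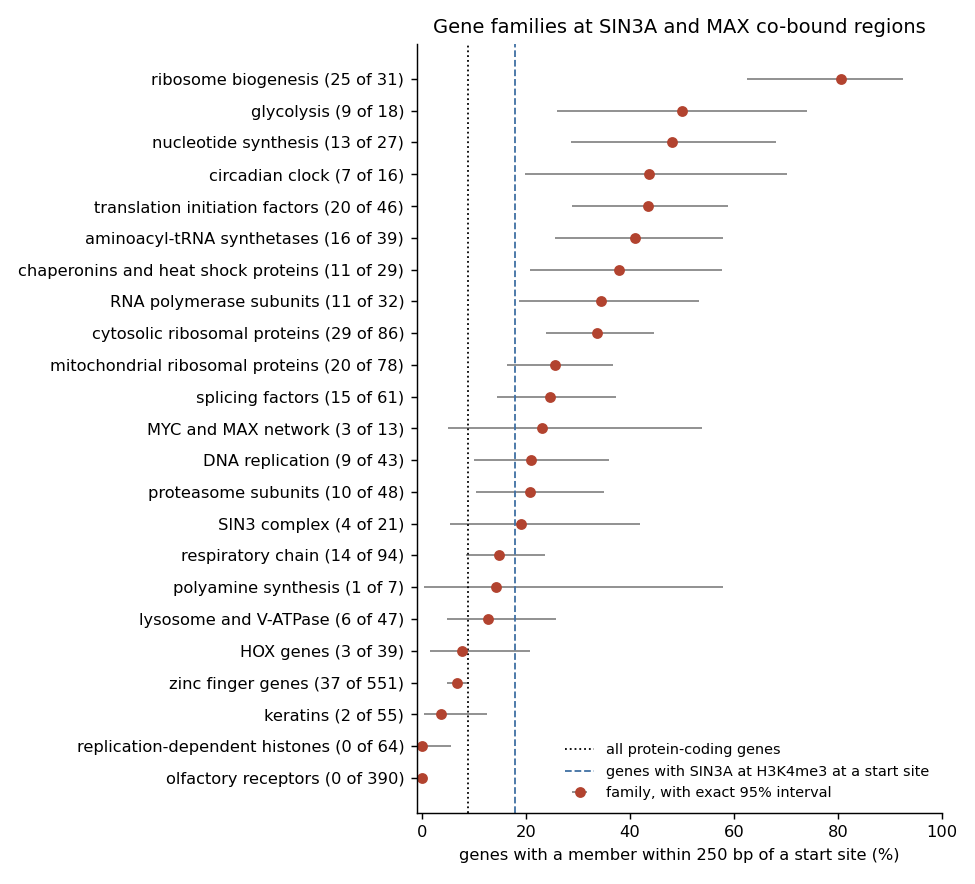
Percent of genes with a member within 250 bp of a start site (x axis) for 23 gene families (y axis, with counts), as points with exact 95% intervals. The dotted line is all protein-coding genes (8.94%) and the dashed line genes with SIN3A at H3K4me3 (17.9%). Ribosome biogenesis lies at 80.6%, and histone genes and olfactory receptors at 0.

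The MAX network and the SIN3 complex themselves had shares whose intervals held the 17.9% of all genes with SIN3A at H3K4me3, and also the 8.94% of all protein-coding genes. Of 13 genes of the MYC and MAX network 3 had one (23.1%, interval 5.04 to 53.8). MXI1, an MXD-type repressor, had a MAX fold of 11.7, MYCL, a MYC paralog, 6.33 and MGA, a large MAX partner, 6.24. MAX, MLX, MLXIP, MLXIPL, MNT, MXD1, MXD3, MXD4, MYC and MYCN had none, and of these only MYCN lacked SIN3A at its start site. Of 21 genes of the SIN3 complex 4 had one (19.0%, 5.45 to 41.9). SINHCAF, a subunit of the complex, was covered by 4 separate members with MAX folds from 4.95 to 8.80, BRMS1 had 4.75, RBBP4, a histone chaperone, 4.70 and KDM5A, a demethylase of H3K4me3 whose start region is shared with CCDC77, 3.88. SIN3A, SIN3B, HDAC1, HDAC2, ARID4A, ARID4B, BRMS1L, ING1, ING2, OGT, PHF12, RBBP7, SAP130, SAP18, SAP30, SAP30L and SUDS3 had none. No E-box lay within 50 bp of the MAX summit at any of the 7 genes with a member. MXI1 lies on chromosome 10 and SINHCAF and KDM5A on chromosome 12, where members were denser.

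By MAX fold, the strongest 10 members at protein-coding start sites were those of BCKDHA with EXOSC5, FBXO32, SPRYD4, NCL, FBXO25, PPRC1, SNX8, ADAMTS17, USP2 and TBC1D22A. An E-box lay within 50 bp of the summit in 8 of them, and FBXO25 and TBC1D22A had none. The member between BCKDHA, of branched-chain amino acid breakdown, and EXOSC5, of the RNA exosome, at chr19:41903049-41903513, had MAX folds of 22.8 and 25.1 in Ishikawa and 5.84 and 16.7 in T-47D under DMSO and E2. FBXO32, a ubiquitin ligase of muscle atrophy, had 20.1 and 20.6 in Ishikawa and 9.37 and 22.2 in T-47D. PPRC1, a coactivator of mitochondrial biogenesis, held 3 E-boxes in its window at chr10:103892773-103893733 and was overlapped in 5 of the 6 T-47D lists. TBC1D22A, in contrast, carried LSD1 at 53.4 and 64.1, JUN at 40.4 and 70.8 and H3K27me3 at 16.4 under DMSO, and none of the 6 T-47D lists.

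Most of the members with the highest MAX folds lay away from start sites. Of the 10 strongest members overall 8 had no protein-coding start site within 250 bp, and the strongest 6 of these were named after their values were seen. The strongest of all, in an intron of ARID3A at chr19:934891-935453, had a MAX fold of 24.5 under DMSO and 15.8 under E2, LSD1 at 30.5 and 42.5, JUN at 22.8 and 44.1, and H3K27me3 at 22.2 and H3K4me1 at 14.1 under DMSO. The others lay in introns of SDF4, BAG3 and FAM20C, between genes near EMP2, and upstream of HMOX1, which encodes heme oxygenase. None of the 6 was overlapped by MAX, MYC or SIN3A of T-47D.

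Under E2, MAX was called at part of the members. The Ishikawa MAX E2 list overlapped 1033 of 2564 members (40.3%, interval 38.4 to 42.2), and 51.8% of that list of 1999 peaks lay at members. In equal windows the shares were 39.3% at SIN3A regions with a member and 2.65% at those without MAX. At the 1033 shared members the median MAX fold was 8.02 under DMSO and 8.19 under E2. Single members differed more than these medians, as CRY2 and the intron of ARID3A show. The summits of these pairs lay a median of 35 bp apart. Overlap varied with the strength of MAX and with the E-box. It was 21.1% in the lowest of 5 equal classes of members by MAX DMSO fold and 75.6% in the highest, and 59.0% with an E-box against 34.7% without. Ishikawa MYC had 50 peaks under DMSO and 2 under E2, each list overlapping 1 member.

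TAF1, the largest subunit of the general factor TFIID, was almost everywhere. It overlapped 2524 members (98.4%) under DMSO and 2438 (95.1%) under E2. SIN3A regions without MAX had it in 94.3% and 87.4% of equal windows, and those with a member in 98.6% and 95.1%. At the 2435 members with TAF1 under both treatments the median fold was 24.5 under DMSO and 18.9 under E2. TAF1 was thus a shared feature of SIN3A and H3K4me3 regions, with a higher share with MAX. The gap was small at start sites, at 99.3% against 96.9% under DMSO and 97.4% against 92.9% under E2. Away from start sites it was wider, at 96.7% against 86.3% under DMSO and 89.3% against 69.6% under E2.

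LSD1, a histone demethylase found in corepressor complexes, separated the sets more. It overlapped 1183 members under DMSO (46.1%, interval 44.2 to 48.1) and 2032 under E2 (79.3%, 77.6 to 80.8). In equal windows LSD1 was found at 47.4% of SIN3A regions with a member and 24.2% of those without MAX under DMSO, and at 80.5% and 57.6% under E2. The gap was present within start sites, where the DMSO shares were 37.8% and 20.6%, and away from them, at 72.1% and 35.6%. It was also present in each of 4 classes of SIN3A fold, at 59.4% and 24.1% in the lowest and 38.8% and 24.6% in the highest. Of the members, 1148 had LSD1 under both treatments, 884 under E2 only and 35 under DMSO only, and at the 1148 the median LSD1 fold was 10.8 under DMSO and 14.9 under E2. The LSD1 E2 list was longer, with 18382 peaks against 8613, and the share of list length in this difference was not tested.

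RARA, the retinoic acid receptor alpha, had 136 peaks under DMSO and 2881 under E2. It overlapped 15 members (0.585%) under DMSO and 592 (23.1%) under E2. In equal windows under E2 it stood at 25.2% of SIN3A regions with a member and 10.9% of those without MAX, whereas under DMSO the shares were 0.753% and 0.56%, with overlapping intervals. Of the 592 members with RARA under E2, 532 also had LSD1 under E2. Members with RARA, TAF1 and LSD1 together numbered 11 under DMSO and 521 under E2. Of the 11, the strongest in RARA was that of PXMP4, a peroxisomal membrane protein, where RARA reached 29.0 under DMSO and 70.6 under E2, TAF1 38.4 and 30.2, and LSD1 8.35 and 19.7. Its start region held 2 members, which share these peaks. The next were a member on chromosome 21 in an exon of a noncoding gene, at RARA folds of 13.2 and 29.2, that of ORMDL2, a regulator of sphingolipid synthesis, at 12.2 and 22.4, and that of GOLT1B with RECQL at 10.8 and 22.4. All of these RARA folds were higher under E2.

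JUN, of the AP-1 factor, and H3K27me3, the mark of Polycomb, were found at many of the same members as LSD1 and RARA. JUN overlapped 22.2% of members under DMSO and 78.4% under E2, from lists of 3763 and 18310 peaks. H3K27me3 overlapped 23.9% and 55.7%, from lists of 2193 and 6989 peaks. In equal windows under DMSO the shares at SIN3A regions with and without MAX were 22.7% and 6.33% for JUN and 23.7% and 4.75% for H3K27me3. Of the 612 members with H3K27me3 under DMSO, 87.6% had LSD1 under DMSO, 98.0% JUN under E2 and 51.1% RARA under E2, against 33.1%, 72.2% and 14.3% of the other 1952 members. That group lay at a protein-coding start site in 35.6% and held an E-box in 12.9%, against 73.0% and 26.3%. T-47D H3K27me3 under DMSO covered 40.1% of members, while the T-47D list under E2, with 99 peaks, covered none. In equal windows the T-47D shares under DMSO were 41.9% with a member and 28.8% without MAX. This T-47D mark covered 49.3% of members at protein-coding start sites and 23.6% of those away from them, the reverse of Ishikawa H3K27me3 under DMSO.

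**Figure D4:**
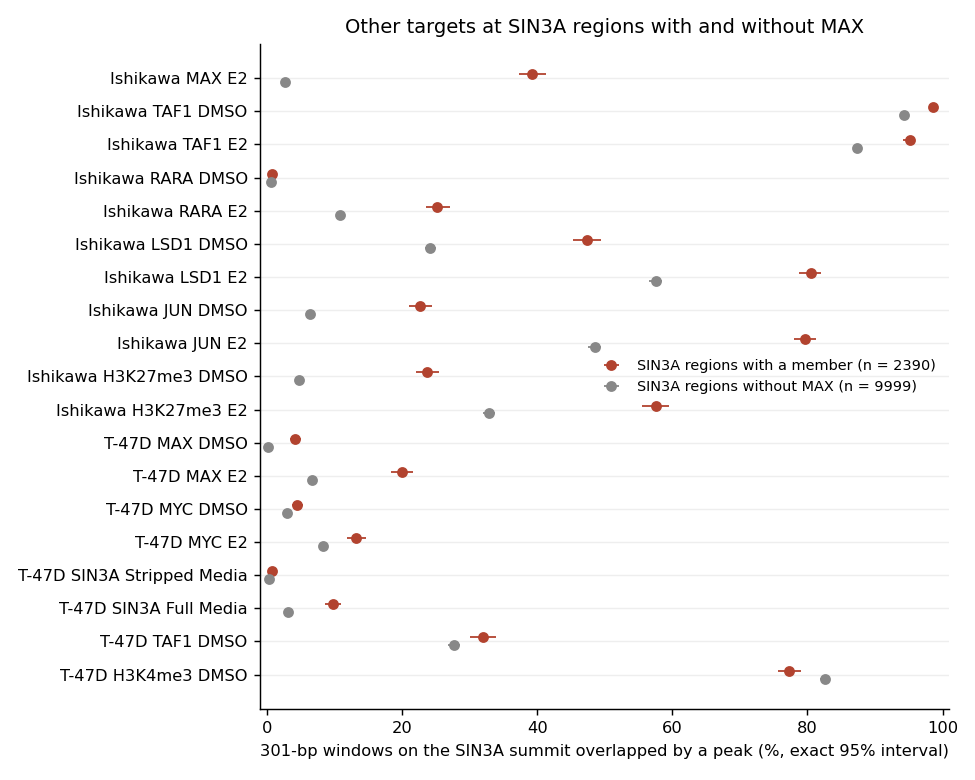
Percent of equal windows, 150 bp to either side of the SIN3A summit, that a peak of the named list overlapped (x axis), with exact 95% intervals, at 2390 SIN3A regions with a member and 9999 without MAX, for 19 lists (y axis). Shares with a member exceed those without for LSD1, JUN, H3K27me3 and RARA under E2 of Ishikawa and for MAX of both lines, while T-47D H3K4me3 is lower, 77.3% against 82.5%.

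Start sites and other places formed contrasting kinds of member. The 922 members away from protein-coding start sites had a higher median MAX fold than the 1642 at them, 7.77 against 6.25. MAX under E2 stood at 53.0% against 33.1%. Under DMSO, LSD1 stood at 61.4% against 37.6%, H3K27me3 at 42.7% against 13.3% and H3K4me1, a mark of enhancers, at 42.5% against 2.92%. Under E2 the gap was narrower for LSD1, 82.5% against 77.4%, and turned for H3K27me3, 48.9% against 59.5%. In T-47D, H3K4me3 under DMSO covered 48.2% of the members away from start sites against 90.0% of those at them, and MAX under E2 9.0% against 25.8%. Set against SIN3A regions without MAX in equal windows, T-47D H3K4me3 stood at 93.1% with a member against 90.7% at start sites. Away from them it stood at 36.3% against 56.5%. The contrast under DMSO was not particular to members. At SIN3A regions without MAX, H3K4me1 stood at 26.3% of equal windows away from start sites and 1.21% at them, and H3K27me3 at 14.8% and 1.63%. With a member these were 54.8% and 2.78% for H3K4me1 and 53.5% and 12.3% for H3K27me3. The 454 members beyond 1000 bp of any annotated start site were the extreme. Under DMSO they had H3K4me1 at 65.9%, LSD1 at 79.5% and T-47D H3K4me3 at 24.2%, and T-47D SIN3A of full media was at 0.

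The same order appeared over the strength of MAX. From the lowest to the highest of the 5 classes by MAX fold, whose medians were 4.63 and 11, H3K27me3 under DMSO went from 9.55% to 51.1%, LSD1 under DMSO from 38.4% to 65.7% and RARA under E2 from 17.9% to 39.0%. The change was smaller under E2, from 53.6% to 60.6% for H3K27me3 and from 74.7% to 87.3% for LSD1. The share at protein-coding start sites went from 81.7% to 39.0% and that with T-47D H3K4me3 from 89.7% to 47.4%. E-boxes went from 19.7% to 29.6%. The E-box and LSD1 marked partly different members. Within the highest class LSD1 under DMSO stood at 48.0% of members with an E-box and 73.1% of those without, and H3K27me3 under DMSO at 34.9% and 57.9%. At protein-coding start sites LSD1 under DMSO stood at 28.2% with an E-box and 40.6% without.

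**Figure D5:**
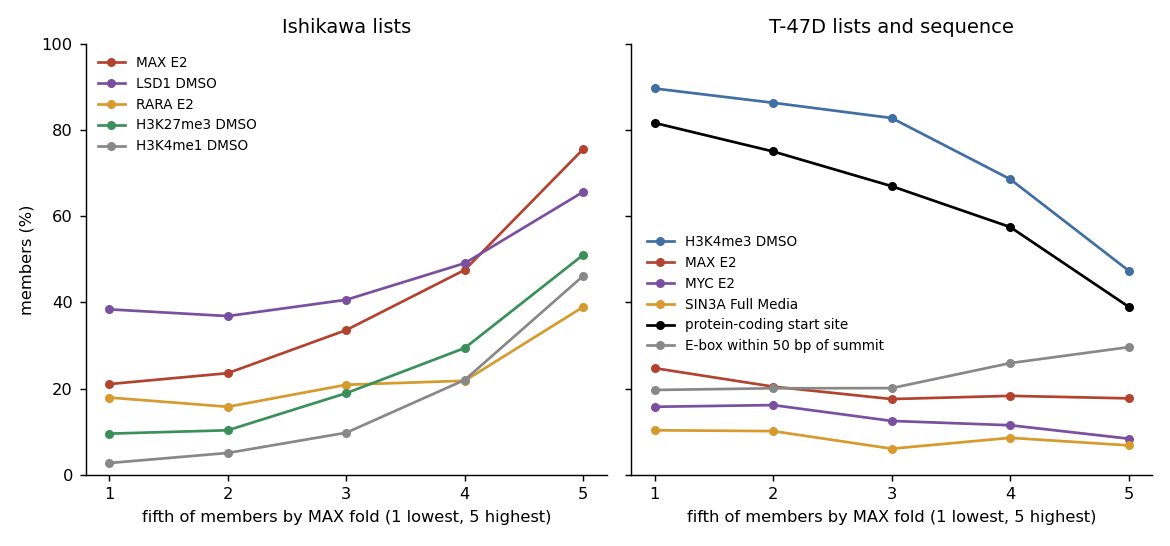
Percent of members (y axis) overlapped by the named list, by class of MAX DMSO fold from 1, the lowest, to 5, the highest (x axis, 512 or 513 members each), for Ishikawa lists (left) and for T-47D lists, start sites and E-boxes (right). MAX E2 and RARA E2 of Ishikawa, and LSD1, H3K27me3 and H3K4me1 of Ishikawa under DMSO, are highest in class 5, while T-47D H3K4me3 under DMSO falls to 47.4% and start sites to 39.0%.

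In T-47D, MAX was called at a minority of members. The T-47D MAX DMSO list had 197 peaks, of which 57.9% lay at members, where they overlapped 113 (4.41%). The MAX E2 list had 1490 peaks, of which 32.9% lay at members, overlapping 507 (19.8%, interval 18.2 to 21.4). In equal windows SIN3A regions without MAX in Ishikawa had T-47D MAX in 0.11% under DMSO and 6.72% under E2, against 4.18% and 19.9% with a member. The E-box followed the shared places. It stood in 73.5% of members overlapped by T-47D MAX DMSO and in 20.8% of the others, and in 37.5% and 19.5% for T-47D MAX E2. The summits of T-47D MAX DMSO lay a median of 23 bp from the Ishikawa summit, and those of MAX E2 60 bp.

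T-47D MYC overlapped 112 members (4.37%) under DMSO and 330 (12.9%) under E2, out of 592 and 1811 peaks, and 18.8% and 17.6% of these lists lay at members. The difference from SIN3A regions without MAX was smaller than for MAX, at 13.2% against 8.35% under E2 and 4.44% against 2.96% under DMSO. In 4 classes of rising Ishikawa SIN3A fold the E2 shares of MYC were 4.62% against 3.71%, 8.24% against 6.67%, 11.7% against 12% and 19.0% against 12.3%, while those of T-47D MAX were 6.15% against 2.67%, 12.9% against 6.26%, 16.9% against 9.11% and 29.3% against 9.88%. Under DMSO the MYC shares in the highest class were 6.0% against 5.27%. At protein-coding start sites they were 16.6% against 9.39% under E2 and 5.56% against 3.44% under DMSO, and away from them 4.22% against 5.01% and 1.51% against 1.43%. T-47D MAX under E2 had 25.4% against 7.88% at start sites and 5.72% against 2.99% away from them. Members with T-47D MYC under E2 held an E-box in 24.2%, close to the 22.9% of the others, and the MYC summits lay a median of 112 bp from the MAX summit of Ishikawa. T-47D SIN3A overlapped 18 members in stripped media and 215 (8.39%) in full media, of lists of 70 and 649 peaks, and 33.3% of the full-media list lay at members. In equal windows full-media SIN3A of T-47D stood at 9.75% with a member and 3.04% without MAX. This gap was found mainly in the highest of 4 classes of Ishikawa SIN3A fold, at 20.9% against 11.4%, with 0.308% against 0.144% in the lowest.

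Some members were overlapped by more than 1 of the T-47D factors. MAX of either treatment overlapped 539 members, MYC 382 and SIN3A of either medium 218, and 820 members (32.0%) had at least 1 of them. MAX and MYC met at 208 members and all 3 proteins at 48. T-47D MYC stood at 38.6% of members with T-47D MAX and 8.59% of those without, and T-47D SIN3A at 17.4% and 6.12%. Joint overlaps were counted at members only. Whether these factors meet there more often than at SIN3A regions without MAX was not tested. No member was overlapped by all 6 of these lists, and 5 by 5 of them. Those at protein-coding start sites were the members of PPRC1, of DDX31 with GTF3C4 and of FBXW8. At DDX31, an RNA helicase of the nucleolus, and GTF3C4, of RNA polymerase III initiation, T-47D MAX had folds of 7.82 and 17.8 and MYC of 13.2 and 9.92 under DMSO and E2, and SIN3A 10.9 in full media. FBXW8, a ubiquitin ligase subunit, had 8.87 and 17.2 for MAX, 13.1 and 12.6 for MYC and 7.84 for SIN3A. The member there holds the E-box printed above at the summit itself. NCL, NDUFAF6, USP2, KICS2, NME1, G6PC3 and SLC48A1 with RAPGEF3 were also named. Each was overlapped by 4 lists, as were 29 members in all, from which these were taken by the highest Ishikawa MAX fold at start sites.

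RNAPII was called at most members in T-47D. It overlapped 86.7% and 59.3% of members in the DMSO libraries and 82.3% and 68.1% in the E2 libraries, so the libraries of a treatment differed more than the treatments did. The means were 73.0 ± 19.4% under DMSO and 75.2 ± 10.1% under E2 (SD, n = 2), a difference of 2.20 points with p = 1 in an exact two-sided permutation test, whose smallest possible p is 0.333. The labels do not say whether the libraries of a treatment came from separate cultures. In the RNAPII libraries the shares at SIN3A regions without MAX were 88.4%, 61.1%, 83.7% and 69.9% in equal windows, against 86.9%, 62.1%, 83.1% and 70.4% with a member.

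Without chromosomes 10 and 12, on which members were denser, 7.63% of all protein-coding genes and 15.4% of those with SIN3A at H3K4me3 had a member, ribosome biogenesis had 20 of 26, and the shares of nucleotide synthesis, translation initiation factors and synthetases were 46.2%, 40.5% and 37.8%. Glycolysis had 4 of 10 genes (40.0%), against 9 of 18 with these chromosomes, so many of its genes with a member lay on them. The respiratory chain had 8 of 84 (9.52%), and no keratin had a member. LSD1 under DMSO then stood at 43.3% of SIN3A regions with a member and 23.4% of those without MAX, RARA under E2 at 23.3% and 10.7%, H3K27me3 under DMSO at 20.6% and 4.39%, MAX of T-47D under E2 at 20.7% and 6.71%, and the E-box at 15.6% and 2.94%.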

How the data were processed

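ChIP-seq peaks of 45 of the 49 samples were used, and the 4 input libraries were not analysed here. Per the submitters' notes and the methods, the authors aligned reads to hg19 with Bowtie 1.1.2, kept reads with 1 best alignment, and called narrow peaks per library with MACS2 2.1.0.20140616 at a q cutoff of 0.05. The deposited lists give each peak's fold enrichment, a ratio of pileup to local background, set by the authors' peak caller. They also give −log10 p and −log10 q values as deposited by the authors, whose smallest −log10 p was 10.0. No listed peak had a weaker p than this, so the lists appear to be cut more strictly than at the stated q cutoff. Reads are not in the lists, so depth and its precision are unknown.

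Regions were intersected at 1 bp with Python 3.11.15, numpy 2.4.6 and pandas 2.3.3. Exact Clopper-Pearson intervals and the exact permutation test used scipy 1.17.1, and sequence was read from GRCh37 with pysam 0.24.0 and samtools 1.23.1. Start sites came from GENCODE release 44 lifted to GRCh37. A gene had a member when the region lay within 250 bp of a protein-coding start, and a region's value was the highest fold of the overlapping peaks. Text names the 10 strongest members at start sites, the 10 at start sites in most T-47D lists with ties by Ishikawa MAX fold, up to 5 with RARA, TAF1 and LSD1, and up to 4 genes per family by MAX fold, and all genes of the MAX network and the SIN3 complex. Further genes of ribosome biogenesis and the circadian clock, HSPD1 and HSPE1, members away from start sites, and lists of genes without a member were added after values were seen. The members and gene lists were chosen with earlier results of these data known. The overlap, motif and permutation code was checked on simulated regions. Only RNAPII had replicates. Its replicate numbers mark no stated pairing, and over 1494 members with a peak in all 4 libraries the differences of same-numbered libraries correlated at 0.317.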

Additional observations from a re-analysis of the deposited data

Results flagged for a closer look

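For TAF1, RARA and H3K27me3 the share of members overlapped moved in opposite directions with E2 in the 2 lines. Each share rests on 1 library per line and treatment, so the difference between lines was not tested. List lengths moved the same way as each share, and their part was not tested. The change from DMSO to E2 in TAF1 was -3.35 percentage points in Ishikawa, with 19348 and 16552 peaks, and 7.29 in T-47D, with 4587 and 5643. For RARA, the nuclear receptor of retinoic acid, it was 22.5 points in Ishikawa, with 136 and 2881 peaks, and -1.01 in T-47D, with 838 and 750, where the exact intervals of the shares, 3.75 to 5.40% and 2.83 to 4.30%, overlapped. For H3K27me3, the Polycomb mark, it was 31.8 points in Ishikawa, with 2193 and 6989 peaks, and -40.1 in T-47D, with 6301 and 99.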

How the results depend on the processing

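Of 53 alternative values 27 were counted as unchanged, 24 as moved and 2 as turned in direction. A share counted as unchanged when it stayed inside the exact interval of its main value. The RNAPII difference counted as unchanged when it kept its direction, whatever its size. With MAX fold of at least 10, 366 members remained. Their shares were 81.4% for MAX E2, 98.9% for TAF1, 1.37% for RARA and 68.9% for LSD1 under DMSO, 16.9%, 8.20% and 7.10% for T-47D MAX E2, MYC E2 and full-media SIN3A, 30.3% for the E-box, and 0.719% of genes. Ribosome biogenesis fell from 80.6% to 9.68% of its genes there, an alternative added for this family after seeing the data. With the MAX summit inside the peak of the other list, MAX E2 was 37.2%, RARA 0.234%, LSD1 40.5%, and T-47D MAX, MYC and SIN3A 17.8%, 9.87% and 6.79%. The E-box share was 15.5% within 25 bp and 31.4% within 100 bp. Genes with a member were 10.5% at 1 kb from a start and 8.48% with the summit inside the SIN3A and H3K4me3 peaks. Without chromosomes 10 and 12, chosen after seeing the data, LSD1 was 41.8%, the E-box 25.1% and genes 7.63%. The RNAPII difference of 2.20 points ranged from -11.5 to 15.9 with 1 library left out, and was -4.91 without E2 replicate 1. With a replicate block it was 2.20 points, exact p = 1, where 0.5 is the smallest 2 pairs allow. Peak lists carry no depth, so a missing peak does not show absence of binding, and calls of single libraries have no replicate error.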

Other observations

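MAX peaks of Ishikawa outside the rule had another setting. Of the 801 such peaks 15.4% lay within 250 bp of a protein-coding start site, against 64.0% of members, and their median MAX fold was 8.43. They held an E-box within 50 bp of the summit in 26.6%.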
